A study of Danio rerio with 5 samples.

Results

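In MZdicer zebrafish embryos, which lack maternal and zygotic Dicer, 53 of the 26158 genes in the tables stood above wild type and were lowered by an injected miR-430 duplex and by an injected miR-430 Ago2 hairpin. A version of that hairpin carrying 3 phosphorothioate bonds, the 3xPS hairpin, lowered them less. They were chosen on read counts per 1000000 counts of the library (CPM). A gene was taken when its MZdicer CPM was at least 3 and at least 2 times its wild type CPM, and its duplex CPM and hairpin CPM were each at most 0.5 times that in MZdicer. In addition its 3xPS hairpin CPM had to be at least 0.6 times that in MZdicer. Genes that met the conditions on MZdicer and wild type alone, 2321 in all, are called MZdicer-high below, and a gene at or under the limit of 0.5 is called lowered. The choice used all 5 libraries, so the values below describe the 53 genes and no test was made on them.

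Poly(A)+ RNA was sequenced from whole embryos that had reached the shield stage of gastrulation, 6 h post fertilization. There were 5 libraries of 15 pooled embryos, 1 for each group. The MZdicer groups carried the hu896 mutation in the homozygous state. They were injected at the 1-cell stage with 1 nl of a 25 µM stock of the 3xPS hairpin, of the hairpin or of the duplex, or were left uninjected. The wild type was of mixed TU/AB/TL/TLF background and uninjected. Total counts were 24623675 with the 3xPS hairpin, 24123349 with the hairpin, 25317886 with the duplex, 14867084 in MZdicer and 26300080 in wild type. With 1 library per group no difference has a replicate check. Bracketed 95% intervals reflect counting alone, except where they are said to be over genes. There was no mock-injected MZdicer library among these, so injection itself and miR-430 cannot be told apart, nor can strain and the Dicer mutation. In RNA from whole embryos, fewer cells of a type and less RNA per cell cannot be told apart either. DICER1 itself was at 23.2 CPM after the 3xPS hairpin, 20.5 CPM after the hairpin and 22.6 CPM after the duplex, against 22.8 CPM in uninjected MZdicer and 35.2 CPM in wild type, counted over the whole gene and whether or not the transcript carries the mutation. Markers of the shield stage were present in every library, tbx16 at 888 to 1014 CPM, chrd at 176 to 404 CPM and GSC at 27.98 to 55.1 CPM. Another, eve1, was at 49.02 CPM after the 3xPS hairpin, 74.6 CPM after the hairpin and 107 CPM after the duplex. It was at 72.1 CPM in uninjected MZdicer and 193 CPM in wild type. The enveloping layer marker epcam was at 123 to 150 CPM in the MZdicer libraries and 393 CPM in wild type. Also highest in wild type were krt4, cldne and krt5 of that layer, krt5 at 1940 CPM. In the MZdicer libraries krt5 ran from 819 to 1230 CPM, highest with the duplex. Of the yolk syncytial layer, mxtx2 was at 20.4 CPM after either hairpin, 9.95 CPM after the duplex, 14.6 CPM in uninjected MZdicer and 2.66 CPM in wild type. HNF4A of that layer was at 133 to 210 CPM. DDX4 of germ cells was at 288 to 300 CPM throughout. Other germ cell markers varied more, NANOS3 from 13.8 to 21.1 CPM and DND1 from 8.06 to 15.7 CPM. The marker tdrd7a ran from 29.4 CPM in wild type to 74.2 CPM in uninjected MZdicer. Whether stage or cell composition differed was not tested. Of genes looked up as markers of later tissues, the insulin gene ins had 0 to 2 counts and myhz2 5 to 21 counts. ELAVL3 was at 2.36 to 3.25 CPM in the MZdicer libraries, injected or not, and at 0.608 CPM in wild type.

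MicroRNAs of the miR-430 family are made in large amounts when the zygotic genome of the fish becomes active. They pair with sites in the 3' untranslated regions of messenger RNAs, and the bound messages lose their poly(A) tails and are degraded, among them many that the egg had stored. Most microRNA precursors are cut by Dicer. A short hairpin of the miR-451 type is instead cut by Argonaute 2, after which the 3' end is trimmed by the ribonuclease PARN. Phosphorothioate bonds resist nucleases, and the submitters' design text calls the hairpin forms trimmable and nontrimmable. The length of the injected RNA was not measured in these libraries.

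The 53 genes were a minority of the genes that the duplex lowered. Among MZdicer-high genes, 153 were at or under 0.5 times their MZdicer CPM with the 3xPS hairpin (6.59%), 245 with the hairpin (10.6%) and 798 with the duplex (34.4%). Both the hairpin and the duplex lowered 218 genes. Of these, 118 were lowered by the 3xPS hairpin as well, 47 were between 0.5 and 0.6 times MZdicer with the 3xPS hairpin, and 53 were at or above 0.6 times, which is 24.3% of the 218. The opposite pattern, lowered by the 3xPS hairpin and the duplex with the hairpin at or above 0.6 times MZdicer, was met by 8 genes, and 411 genes were lowered by the duplex while both hairpins were at or above 0.6 times. The 3xPS hairpin over hairpin ratio was above 1 in 593 of the 798 genes lowered by the duplex (74.3%, median ratio 1.13), in 1529 of the 2321 MZdicer-high genes (65.9%, median 1.07) and in 6623 of the 14098 genes measured at a mean of at least 1 CPM (46.98%, median 0.985). The members lay at the edge of a continuous cloud of duplex-lowered genes.

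**Figure D1:**
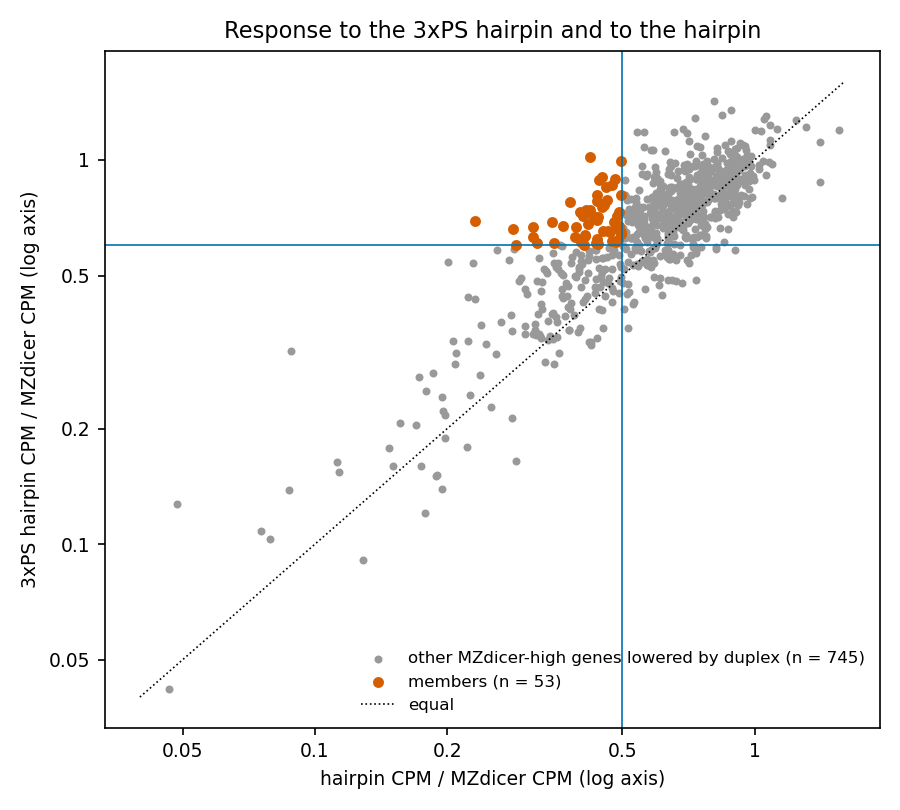
Each point is 1 of the 798 MZdicer-high genes lowered by the duplex, with its hairpin CPM over MZdicer CPM on the horizontal log axis and its 3xPS hairpin CPM over MZdicer CPM on the vertical log axis. The blue lines are the limits of 0.5 and 0.6 that set off the 53 members (orange), the dotted line marks equal ratios. The grey points, the remaining genes lowered by the duplex, run into the members without a gap.

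Over the 53 members the median level was 8.69 CPM after the 3xPS hairpin, 4.601 CPM after the hairpin and 3.04 CPM after the duplex, against 12.3 CPM in uninjected MZdicer and 2.395 CPM in wild type. The MZdicer over wild type ratio ran from 2.02 to 45.99 with a median of 5.59; of all measured genes, 20.1% had a ratio of at least 2. The ratio to MZdicer had a median of 0.681 with the 3xPS hairpin (range 0.60002 to 1.02), 0.438 with the hairpin (0.231 to 0.496) and 0.271 with the duplex (0.0698 to 0.488). Most members lay close to the limits that chose them. With the 3xPS hairpin 17 were between 0.6 and 0.65 times MZdicer, 14 between 0.65 and 0.7, 13 between 0.7 and 0.8 and 9 at 0.8 or more, and with the hairpin 20 were between 0.4 and 0.45 times and 21 between 0.45 and 0.5 times MZdicer.

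The members also stood below MZdicer in the 3xPS hairpin library. Fewer CPM than in MZdicer were seen in 52 of 53 members, 1673 of 2321 MZdicer-high genes and 744 of the 798 lowered by the duplex. Of all 14098 measured genes, which were not chosen for a high MZdicer value, it was 7240. For 43 members the counting interval of the 3xPS hairpin over MZdicer ratio lay below 1. It did so for 41.7% of MZdicer-high genes, 74.8% of those lowered by the duplex and 2516 of the 14098 measured genes. The rule fixed the 3xPS hairpin over hairpin ratio at 1.2 or more. Its median was 1.67 (log2 0.74 [0.63, 0.84], an interval of the median over genes) and its range 1.26 to 3.004. For 50 of 53 members the counting interval lay above 1, as it did for 35.2% of MZdicer-high genes and 40.9% of those lowered by the duplex. A ratio of 2 was reached by 9 members, 1.38% of MZdicer-high genes, 2.13% of those lowered by the duplex and 1.04% of measured genes; the rule used this contrast. The intervals of ano10b, ITFG2 and col17a1b included 1.

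The order of the hairpin and the duplex was not set by the rule, although both libraries entered it. The hairpin was above the duplex in 46 of 53 members, against 83% of MZdicer-high genes and 97.4% of the 798 genes lowered by the duplex, to which all members belong. The median ratio was 1.53 in members (log2 0.62 [0.41, 0.93], again an interval of the median over genes) and 1.88 in the duplex-lowered genes. The counting interval lay above 1 for 37 members and below 1 for 0, while it lay above 1 for 64.3% of MZdicer-high and 88.2% of duplex-lowered genes. A hairpin value at least 2-fold that of the duplex was seen in 14 members, 14.9% of MZdicer-high and 41.2% of duplex-lowered genes. Of the 14098 measured genes, the hairpin was above the duplex in 7740, with a counting interval above 1 in 4039 and at least 2-fold in 480. Members lay nearer to equality of hairpin and duplex than the duplex-lowered genes did. This cannot be told apart from the upper limit that the rule sets on members' hairpin values. Under the same limit, the 118 genes lowered by all 3 injections had median ratios to MZdicer of 0.327 (hairpin) and 0.187 (duplex). The 47 genes between 0.5 and 0.6 times MZdicer with the 3xPS hairpin had 0.399 and 0.232, and members 0.438 and 0.271. With the 3xPS hairpin 44 members were at least 2 times their duplex CPM, against 20.9% of MZdicer-high and 58.1% of duplex-lowered genes.

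The difference between MZdicer and wild type gives a scale for how far each injection brought a member back. The median share of that excess removed was 38.8% with the 3xPS hairpin (range -2.07% to 66.1%), 70.1% with the hairpin (53.1% to 114%) and 92.4% with the duplex (68.2% to 144%). Over all MZdicer-high genes the medians were 15.9% with the 3xPS hairpin, 26.5% with the hairpin and 55.4% with the duplex, and over the duplex-lowered genes 36.999% with the 3xPS hairpin, 48.5% with the hairpin and 88.02% with the duplex. The conditions on the ratios to MZdicer bear on this comparison. Relative to wild type the members' median ratio was 4.001 with the 3xPS hairpin, 2.48 with the hairpin and 1.52 with the duplex. At least 2 times the wild type CPM was kept by 47 members with the 3xPS hairpin, 31 with the hairpin and 18 with the duplex, where the shares of MZdicer-high genes were 81.5% with the 3xPS hairpin, 75.5% with the hairpin and 48.3% with the duplex. Among the duplex-lowered genes they were 81.7% with the 3xPS hairpin, 74.3% with the hairpin and 28.4% with the duplex, and the median duplex over wild type ratio was 1.49. The duplex took 9 members below wild type, against 130 of 2321 MZdicer-high and 130 of 798 duplex-lowered genes. Of these 9 members only cdr2a had a counting interval below 1 (1.64% of MZdicer-high and 4.76% of duplex-lowered genes). The gene cdr2a was at 2.17 CPM with the duplex and 3.95 CPM in wild type.

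**Figure D2:**
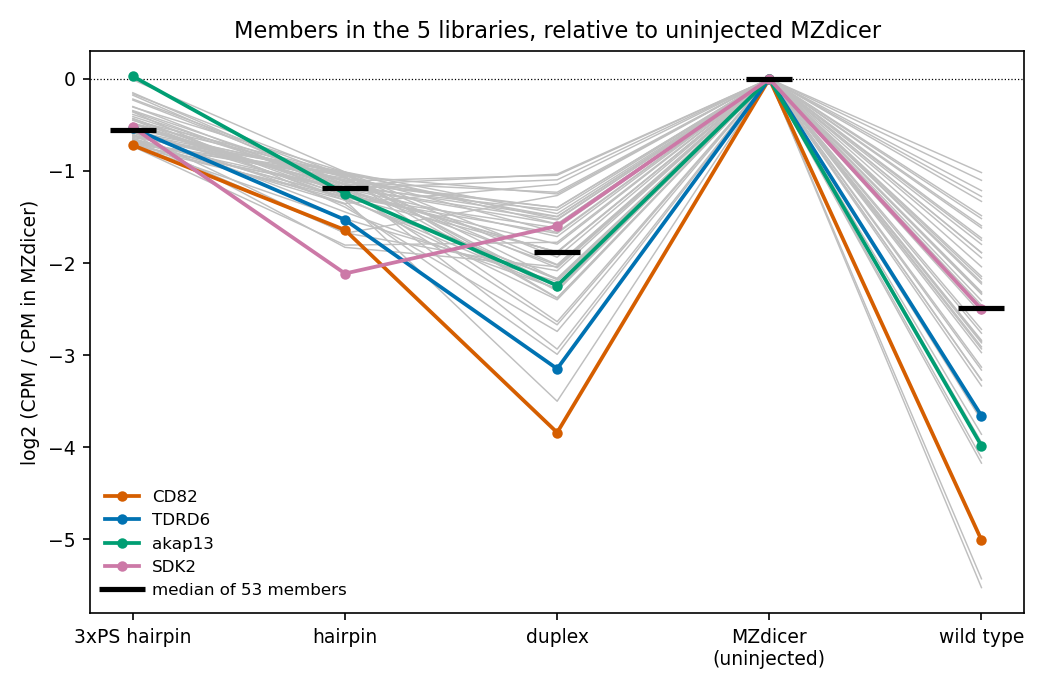
Each line is 1 of the 53 members, with its CPM relative to uninjected MZdicer on a log2 scale in the 5 libraries; black bars are the medians over the members and coloured lines are CD82, TDRD6, akap13 and SDK2. The medians are -0.55 with the 3xPS hairpin, -1.19 with the hairpin and -1.89 with the duplex, and only akap13 is above 0 with the 3xPS hairpin.

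Of the 53 members, 45 had a gene symbol, and they are grouped here by the known roles of their products, a grouping made after the values were seen. CD82, which encodes a tetraspanin of the cell surface, had the most CPM and, per length, the highest RPKM of the members in MZdicer. CD82 (ENSDARG00000026070) was at 165 CPM after the 3xPS hairpin, 87.1 CPM after the hairpin and 18.96 CPM after the duplex, against 271 CPM in uninjected MZdicer and 8.44 CPM in wild type. The duplex left it 14.3-fold [13.02, 15.8] lower than in MZdicer, which is the lowest duplex ratio of the members, while the 3xPS hairpin over hairpin ratio was 1.89 [1.79, 1.996]. Another surface gene, SDK2 (ENSDARG00000060452), a homophilic adhesion molecule of the immunoglobulin superfamily, was at 3.74 CPM after the 3xPS hairpin, 1.24 CPM after the hairpin and 1.78 CPM after the duplex, against 5.38 CPM in uninjected MZdicer and 0.951 CPM in wild type. It had the highest 3xPS hairpin over hairpin ratio, 3.004 [1.97, 4.701], but on only 30 counts with the hairpin, and it was one of 7 members whose hairpin value was below the duplex value, with an interval that included 1.

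TDRD6 (ENSDARG00000070052), a multiple Tudor domain protein of germ granules, was the one member on the list of germ plasm genes. It was at 133 CPM after the 3xPS hairpin, 66.7 CPM after the hairpin and 21.7 CPM after the duplex, against 193 CPM in uninjected MZdicer and 15.2 CPM in wild type, so each library stood well apart from the next. The 3xPS hairpin over hairpin ratio was 1.99 [1.87, 2.11] and the hairpin over duplex ratio 3.07 [2.78, 3.39]. Of 14 germ plasm genes measured, 5 were MZdicer-high, and the other 4 differed in pattern. The germ plasm organizer buc was at 27.2 CPM after the 3xPS hairpin, 25.6 CPM after the hairpin and 6.004 CPM after the duplex, against 170.2 CPM in uninjected MZdicer and 7.11 CPM in wild type, so both hairpins had lowered it to nearly the same level. The germ granule gene tdrd7a was at 52.5 CPM after the 3xPS hairpin, 43.3 CPM after the hairpin and 30.7 CPM after the duplex, against 74.2 CPM in uninjected MZdicer and 29.4 CPM in wild type, and only the duplex value was at or under 0.5 times MZdicer. DAZL, which encodes an RNA-binding protein of germ cells, was at 17.7 CPM after the 3xPS hairpin, 16.4 CPM after the hairpin and 11.2 CPM after the duplex, against 23.9 CPM in uninjected MZdicer and 8.67 CPM in wild type. It was lowered by the duplex, and rgs14a was lowered by none of the 3. Outside this list, TDRD1, another Tudor domain gene, had the order of TDRD6 but lay under the 0.6 limit. Its ratios to MZdicer were 0.575 with the 3xPS hairpin, 0.391 with the hairpin and 0.0828 with the duplex.

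Several members with symbols regulate small GTPases. The gene arhgap35b (ENSDARG00000060297), a GTPase-activating protein, was at 122 CPM after the 3xPS hairpin, 69.3 CPM after the hairpin and 47.4 CPM after the duplex, against 164 CPM in uninjected MZdicer and 32.5 CPM in wild type. The gene akap13 (ENSDARG00000079994), an anchoring protein for protein kinase A that also has exchange factor activity, was at 51.5 CPM after the 3xPS hairpin, 21.3 CPM after the hairpin and 10.7 CPM after the duplex, against 50.5 CPM in uninjected MZdicer and 3.19 CPM in wild type. For akap13 the 3xPS hairpin and MZdicer values could not be told apart (ratio 1.02 [0.931, 1.12]), whereas the 3xPS hairpin over hairpin ratio was 2.42 [2.18, 2.68], the second highest of the members. CHN2 (ENSDARG00000011845), a chimaerin that inactivates Rac, was at 30.6 CPM after the 3xPS hairpin, 20.8 CPM after the hairpin and 8.65 CPM after the duplex, against 42.7 CPM in uninjected MZdicer and 7.64 CPM in wild type. Its duplex value was within counting error of wild type (ratio 1.13 [0.9303, 1.38]). ARHGEF28 (ENSDARG00000060415), a guanine nucleotide exchange factor, was at 15.03 CPM after the 3xPS hairpin, 11.5 CPM after the hairpin and 6.04 CPM after the duplex, against 23.1 CPM in uninjected MZdicer and 2.59 CPM in wild type, and its 3xPS hairpin over hairpin ratio was lower, at 1.31 [1.12, 1.53]. The Rab GTPase activator TBC1D25 was at 16.6 CPM after the 3xPS hairpin, 11.4 CPM after the hairpin and 3.32 CPM after the duplex, against 25.4 CPM in uninjected MZdicer and 1.41 CPM in wild type. By name alone, small GTPases and their regulators made up 3 of the 45 members with symbols (6.67%), against 3.22% of MZdicer-high and 2.05% of measured genes with symbols.

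Repressors and DNA-binding factors formed another group. The gene cica (ENSDARG00000071150), which encodes a Capicua repressor, was at 33.9 CPM after the 3xPS hairpin, 18.9 CPM after the hairpin and 14.9 CPM after the duplex, against 45.7 CPM in uninjected MZdicer and 12.4 CPM in wild type, with a 3xPS hairpin over hairpin ratio of 1.79 [1.597, 2.01]. TP63, a regulator of epidermal fate, was at 11.1 CPM after the 3xPS hairpin, 6.798 CPM after the hairpin and 3.59 CPM after the duplex, against 16.3 CPM in uninjected MZdicer and 2.47 CPM in wild type. The chromatin remodelling subunit PBRM1 and the transcription factors RFX1, ZBTB20 and CUX2 had few counts in MZdicer, at 8.07, 3.77, 3.498 and 3.43 CPM. ZBTB20 had 2 counts in wild type, on which its MZdicer over wild type ratio of 45.99 [12.1, 389.8] rests. The putative RNA-binding zinc finger gene zc3h6 (ENSDARG00000075165) was at 18.5 CPM after the 3xPS hairpin, 10.99 CPM after the hairpin and 9.16 CPM after the duplex, against 24.1 CPM in uninjected MZdicer and 4.26 CPM in wild type. Names of zinc finger type were carried by 2 members (4.44% of those with symbols), against 1.003% of MZdicer-high and 2.04% of measured genes.

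Genes of membrane lipids and membrane traffic were among the members too. VPS13C (ENSDARG00000074465), a lipid transfer protein, was at 23.03 CPM after the 3xPS hairpin, 9.82 CPM after the hairpin and 8.49 CPM after the duplex, against 34.9 CPM in uninjected MZdicer and 6.96 CPM in wild type. The hairpin and the duplex had brought it to about the same level (ratio 1.16 [0.958, 1.398]), and its 3xPS hairpin over hairpin ratio was 2.34 [2.01, 2.74]. SACM1L (ENSDARG00000015290), a phosphoinositide phosphatase, was at 9.79 CPM after the 3xPS hairpin, 5.47 CPM after the hairpin and 3.08 CPM after the duplex, against 12.5 CPM in uninjected MZdicer and 3.38 CPM in wild type, and the duplex value was within counting error of wild type (ratio 0.9104 [0.663, 1.25]). VPS41 (ENSDARG00000063573), a subunit of the lysosomal tethering complex HOPS, was at 6.498 CPM after the 3xPS hairpin, 4.44 CPM after the hairpin and 2.05 CPM after the duplex, against 10.8 CPM in uninjected MZdicer and 1.597 CPM in wild type, which puts it nearest of all members to the 0.6 limit. The phosphatidate phosphatase LPIN2 had similar values with the hairpin and the duplex, at 8.71 and 9.08 CPM, with 12.3 CPM with the 3xPS hairpin and 18.8 CPM in MZdicer.

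Members that act on protein turnover or folding were MKLN1, MARCHF2, dtx3lb.2 and GANAB. MKLN1 (ENSDARG00000025576), the muskelin subunit of the CTLH ubiquitin ligase, was at 31.3 CPM after the 3xPS hairpin, 24.1 CPM after the hairpin and 9.36 CPM after the duplex, against 48.6 CPM in uninjected MZdicer and 6.198 CPM in wild type. The membrane-bound ubiquitin ligase MARCHF2 (ENSDARG00000061738) was at 9.097 CPM after the 3xPS hairpin, 4.52 CPM after the hairpin and 3.397 CPM after the duplex, against 14.4 CPM in uninjected MZdicer and 2.62 CPM in wild type. The gene dtx3lb.2 (ENSDARG00000075504), named for its likeness to a Deltex ligase, was at 9.67 CPM after the 3xPS hairpin, 4.601 CPM after the hairpin and 4.7002 CPM after the duplex, against 16.1 CPM in uninjected MZdicer and 5.74 CPM in wild type. Their 3xPS hairpin over hairpin ratios were 1.298 [1.16, 1.45], 2.01 [1.59, 2.56] and 2.101 [1.67, 2.66], so MKLN1 had the least separation and those of MARCHF2 and dtx3lb.2 were alike in size. GANAB (ENSDARG00000076811), the catalytic subunit of endoplasmic reticulum glucosidase II, was at 26.4 CPM after the 3xPS hairpin, 13.2 CPM after the hairpin and 9.64 CPM after the duplex, against 26.6 CPM in uninjected MZdicer and 3.54 CPM in wild type, with the 3xPS hairpin and MZdicer indistinguishable (ratio 0.994 [0.875, 1.13]). The authors' 2 wider count columns each added 229% to the main count of GANAB in MZdicer. In the widest its 3xPS hairpin over MZdicer ratio was 0.845; a second GANAB gene is listed, and the level of either is uncertain.

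The remaining named members have roles that are less clear or no symbol. The gene si:dkey-256h2.1 (ENSDARG00000021849) was at 129 CPM after the 3xPS hairpin, 103 CPM after the hairpin and 46.4 CPM after the duplex, against 209.7 CPM in uninjected MZdicer and 20.8 CPM in wild type, and its 3xPS hairpin over hairpin ratio of 1.26 [1.196, 1.33] was the lowest of the members. The HEAT repeat gene mroh1 (ENSDARG00000016573) was at 37.8 CPM after the 3xPS hairpin, 24.5 CPM after the hairpin and 18.6 CPM after the duplex, against 59.5 CPM in uninjected MZdicer and 15.5 CPM in wild type. ENSDARG00000077166 was at 34.5 CPM after the 3xPS hairpin, 21.3 CPM after the hairpin and 6.87 CPM after the duplex, against 54.6 CPM in uninjected MZdicer and 3.76 CPM in wild type. ENSDARG00000074737 was at 30.3 CPM after the 3xPS hairpin, 15.2 CPM after the hairpin and 12.8 CPM after the duplex, against 34.3 CPM in uninjected MZdicer and 4.75 CPM in wild type. In ENSDARG00000074737 the 3xPS hairpin removed 13.4% of the excess over wild type, the hairpin 64.7% and the duplex 72.9%. The 31 members not named by the selection rule had MZdicer levels of 3.30 to 25.4 CPM.

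**Figure D3:**
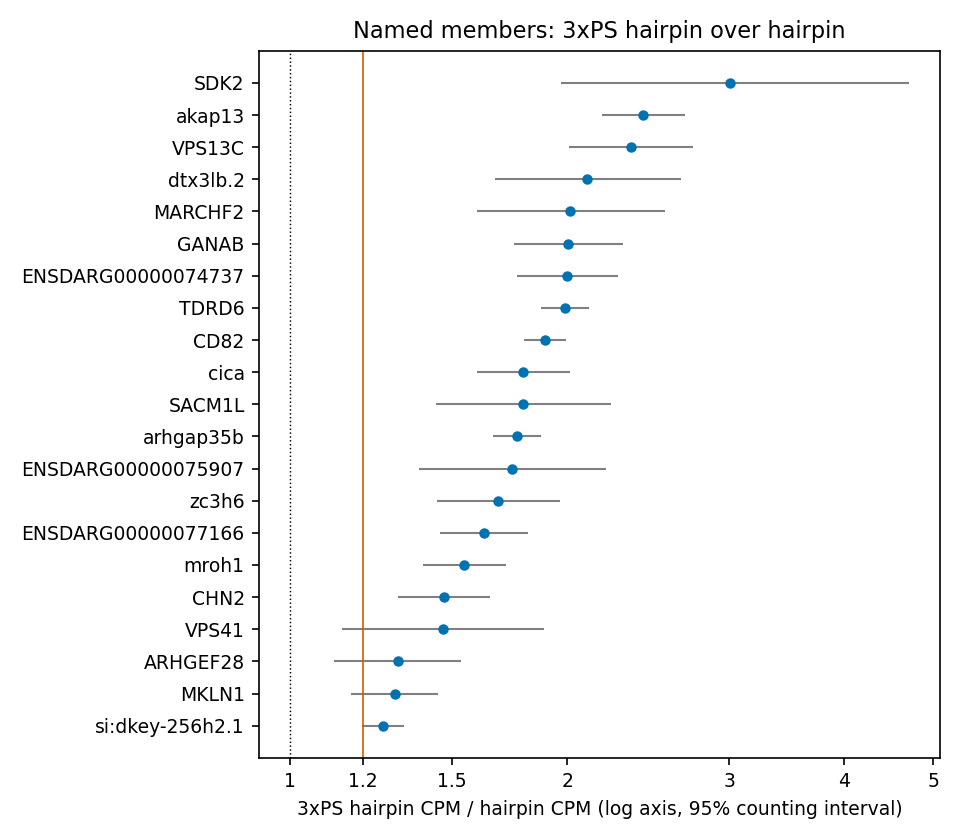
The 3xPS hairpin CPM over hairpin CPM on a log axis for 21 members picked by the selection rule, with 95% counting intervals; the dotted line marks equality and the orange line the ratio of 1.2 that the rule requires. The points run from 1.26 for si:dkey-256h2.1 to 3.004 for SDK2, and all 21 lie above the orange line.

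Genes just outside the limits had much the same values as those just inside, among genes with an MZdicer CPM of at least 10. At the 3xPS hairpin limit, VPS41, dtx3lb.2 and ENSDARG00000075907 lay inside with ratios to MZdicer of 0.60002 [0.479, 0.751], 0.601 [0.5003, 0.722] and 0.607 [0.498, 0.7398]. Outside were ENSDARG00000034710 at 0.5996, ATMIN at 0.598 and AGO1, the small RNA effector, at 0.586, and AGO1 otherwise had the members' order with 14.5 CPM after the 3xPS hairpin, 7.05 CPM after the hairpin and 3.95 CPM after the duplex, against 24.8 CPM in uninjected MZdicer and 3.498 CPM in wild type. At the hairpin limit, ARHGEF28, GANAB and MKLN1 lay inside at 0.496, 0.496 and 0.495, and ENSDARG00000075205, ccnp and selenos outside at 0.503, 0.508 and 0.511. The counting intervals of all 12 genes cover the limit they are near. The limit also leaves out genes with a wide separation: BICC1, an RNA-binding regulator of development, was at 12.9 CPM after the 3xPS hairpin, 3.57 CPM after the hairpin and 0.711 CPM after the duplex, against 40.4 CPM in uninjected MZdicer and 0.5703 CPM in wild type.

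By the symbols assigned to the identifiers, 12 members share their symbol with another measured gene or differ only by a closing a or b. Duplicated fish genes often do. This look-up was chosen after the members were known. The copy was above its member in the ratio to MZdicer in 12 of 12 pairs with the 3xPS hairpin, in 12 of 12 with the hairpin and in 11 of 12 with the duplex. The rule takes members with low hairpin and duplex ratios, which favours this direction for those libraries. For the 3xPS hairpin it sets only a lower limit of 0.6. All 3 ratios share the MZdicer value, and the median 3xPS hairpin ratio was 0.681 in members and 0.995 in measured genes. The count with the 3xPS hairpin was therefore not free of the rule either. Of the 12 copies, 4 were MZdicer-high, where 20.1% of measured genes had an MZdicer over wild type ratio of at least 2. At or under 0.5 times MZdicer were 248 of the 14098 measured genes with the 3xPS hairpin, 397 with the hairpin and 1028 with the duplex. Among the 12 copies it was 0 with either hairpin and 1 copy with the duplex. That copy, CAMSAP1 (ENSDARG00000035122), was at 49.9 CPM after the 3xPS hairpin, 41.4 CPM after the hairpin and 21.6 CPM after the duplex, against 55.96 CPM in uninjected MZdicer and 13.3 CPM in wild type. The second CD82 gene (ENSDARG00000019098) was at 91.9 CPM after the 3xPS hairpin, 91.9 CPM after the hairpin and 112 CPM after the duplex, against 84.9 CPM in uninjected MZdicer and 72.8 CPM in wild type; in the duplex library the member was at 18.96 CPM. The gene tdrd6b lay between 3.52 and 5.32 CPM in all 5 libraries. The Capicua gene cicb was at 46.4 CPM after the 3xPS hairpin, 38.3 CPM after the hairpin and 28.99 CPM after the duplex, against 45.9 CPM in uninjected MZdicer and 23.7 CPM in wild type. ARHGAP35 was at 68.1 CPM after the 3xPS hairpin, 55.2 CPM after the hairpin and 51.6 CPM after the duplex, against 61.6 CPM in uninjected MZdicer and 23.8 CPM in wild type. Neither cicb nor ARHGAP35 was lowered by any injection. The authors' widest count column exceeded the main one by over 5% in some library for 5 members, GANAB, si:dkey-88l16.2, col17a1b, ENSDARG00000094510 and ENSDARG00000044329.

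**Figure D4:**
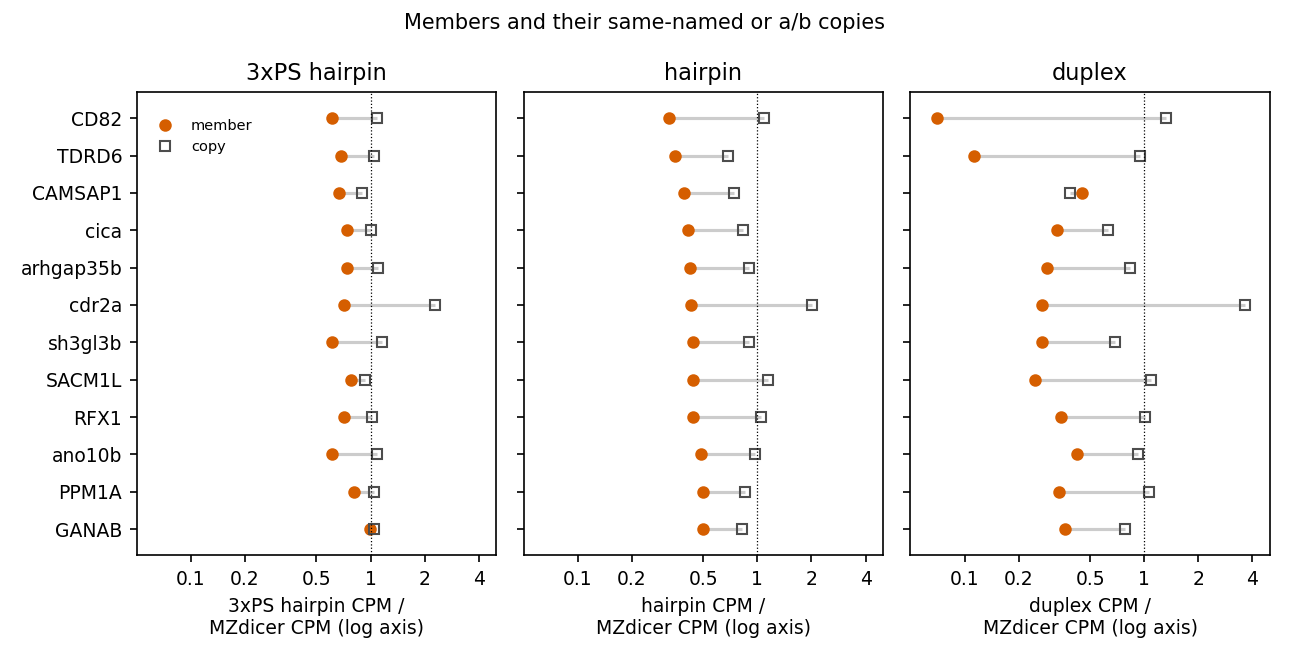
For the 12 members with a measured copy, filled orange circles give the member and open squares the copy, as CPM with the 3xPS hairpin, the hairpin or the duplex over MZdicer CPM on log axes. The copies lie between 0.891 and 2.28 with the 3xPS hairpin, between 0.689 and 2.01 with the hairpin and between 0.387 and 3.66 with the duplex.

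Known targets of miR-430 and genes of related processes were looked up in 8 lists of genes, and TDRD6 was the only member on any of them. Members made up 2.28% of all MZdicer-high genes, and no list held more than 15 of those. The near absence of members from the lists therefore says little. Of 6 measured literature targets, 4 were MZdicer-high. The 3xPS hairpin lowered 1 of these, the hairpin 0 and the duplex all 4. The cyclin CCNA1 was at 750.1 CPM after the 3xPS hairpin, 639.5 CPM after the hairpin and 198 CPM after the duplex, against 1033 CPM in uninjected MZdicer and 49.9 CPM in wild type. The Nodal ligand ndr1 was at 18.2 CPM after the 3xPS hairpin, 21.2 CPM after the hairpin and 5.29 CPM after the duplex, against 33.03 CPM in uninjected MZdicer and 2.32 CPM in wild type. The Nodal antagonist lft2 was at 37.7 CPM after the 3xPS hairpin, 43.2 CPM after the hairpin and 16.8 CPM after the duplex, against 83.3 CPM in uninjected MZdicer and 13.99 CPM in wild type. In ndr1 and lft2 the 3xPS hairpin value was below the hairpin value, as it was in 205 of the 798 duplex-lowered genes. The rule fixes the opposite order in members. Of 15 MZdicer-high oocyte and maternal genes, the 3xPS hairpin lowered 4, the hairpin 3 and the duplex 10. Of 12 deadenylation and decapping genes, the 3xPS hairpin lowered 2, the hairpin 2 and the duplex 6. Of 6 small RNA genes, the 3xPS hairpin lowered 0, the hairpin 1 and the duplex 2. The duplex lowered 3 of 7 cell cycle genes and all 3 Nodal and TGF-beta genes, of which the 3xPS hairpin lowered 0 and 1, and the hairpin 0 of either. The list of Wnt and Fgf genes held none that was MZdicer-high. By name, 1 member (2.22% of those with symbols) belonged to ubiquitin conjugation and removal, against 3.01% of MZdicer-high and 2.38% of measured genes with symbols. Names matched as phosphatases were carried by 1 member, against 1.85% of MZdicer-high and 1.17% of measured genes. Names matched as kinases were carried by 0, against 2.96% of MZdicer-high and 1.68% of measured genes. For solute carriers it was 0, against 2.64% of MZdicer-high and 1.84% of measured genes. These counts go by name pattern alone, in the members and in the compared sets. They leave out members with such roles under other names, among them SACM1L, LPIN2, MKLN1, dtx3lb.2 and ETNK2. A class of names for genes of unassigned function held 3 members (6.67%), against 7.603% of MZdicer-high and 10.1% of measured genes. All 3 had si:dkey names, which give no role.

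The rule did not use gene length, taken from the authors' length column. The members had a median length of 3440 bases (range 749 to 11308), against 2786 bases for MZdicer-high genes and 2205 bases for measured genes. This order depended on the minimum level in MZdicer. With a minimum of 10 CPM the medians were 3654 bases for members and 2956 bases for MZdicer-high genes. They were 2445 bases for members and 2598 bases for MZdicer-high genes with a minimum of 1 CPM, 2343 bases for members and 2468 bases for MZdicer-high genes with a minimum of 3 RPKM, and 1838 bases for members and 2156 bases for MZdicer-high genes with none, so that under these 3 the members were the shorter. At least 4000 bases were reached by 24 members (45.3%), against 29.6% of MZdicer-high genes and 19.4% of measured genes. The 118 genes lowered by all 3 injections had a median of 2794 bases and the 411 lowered by the duplex alone 2697 bases. Levels per length, in the authors' RPKM, had a median over members of 3.25 with the 3xPS hairpin, 2.04 with the hairpin, 1.31 with the duplex, 4.78 in MZdicer and 0.927 in wild type. In MZdicer the highest members per length were CD82 at 90.3 RPKM, si:dkey-256h2.1 at 89.9 RPKM and ENSDARG00000077166 at 57.8 RPKM, and the median over MZdicer-high genes was 6.84 RPKM.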

How the data were processed

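CASAVA 1.8.2, TopHat2 2.0.8 and the zebrafish build Zv9 (danRer7) are named per the submitters' processing notes. How genes were counted, on which annotation, with or without strand and with what rule for reads that map to several places, is not given in the sources used here. Per the file headers, the authors deposited 3 count columns and 3 RPKM columns for each gene. The main values are the deposited whole-number counts, without normalization. The authors' other columns hold estimated counts, partly fractional, and were rounded as an alternative. The authors' RPKM is per length and per depth of the matching count column.

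CPM was computed over the total of the main counts. The ratio intervals are exact conditional binomial (Clopper-Pearson) at 95%, and they treat every read as its own molecule although no molecular identifiers are recorded. The scripts were tested on simulated data. The genes altered in the simulation lay far from the limits of the rule, so membership near the limits was not tested. Scaling factors came from edgeR 4.0.16 and DESeq2 1.42.0 in R 4.3.3; no p-value was computed. A gene was measured at a mean CPM of at least 1 over the 5 libraries. Symbols came from a table of identifiers, which covers 18804 of 26158. No sequences were used.

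The members and lists were chosen with earlier results of these data known. Named members are the 12 highest in MZdicer, the 12 with the highest lower bound of the 3xPS hairpin over hairpin ratio, list members, those nearest the limits and the top 2 without a symbol; others were named after their values were seen. One of the members picked this way is not reported here.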

Additional observations from a re-analysis of the deposited data

How the results depend on the processing

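No paired analysis was possible because each group has 1 library, and leaving one out would empty its group. The number of members depends on the limits far more than on the scaling. It was 55 with TMM factors, 54 with DESeq2 size factors, 50 with upper-quartile factors and 56 with either other count column, and 44 of the 53 members were kept under all 5. Thinning every library to the smallest total gave 55, of which 42 were members. With the 3xPS hairpin limit at 0.7 and 0.8 times MZdicer there were 22 and 9 members. The counts of other patterns were made with the limit raised to 0.7 and 0.8 for both hairpins. They were 1 and 0 genes of the opposite pattern and 266 and 123 lowered by the duplex only. Over the 9 members at 0.8 the median log2 ratios were 0.89 for 3xPS hairpin over hairpin. Over wild type they were 2.90, 1.90 and 1.42 for the 3xPS hairpin, the hairpin and the duplex. Calling a gene lowered at 0.4 and at 0.6 times MZdicer gave 10 and 182 members with a median log2 3xPS hairpin over hairpin ratio of 1.00 and 0.48, 67 and 203 genes lowered by all 3, 0 and 37 of the opposite pattern, and 220 and 655 lowered by the duplex only. A minimum of 1 and of 10 CPM in MZdicer gave 80 and 31 members and 13 and 3 of the opposite pattern, which numbered 5 with a minimum of 3 RPKM. With no minimum there were 243 members, 591 genes lowered by all 3, 158 of the opposite pattern and 717 lowered by the duplex only, and the members had a median length of 1838 bases and median log2 ratios of 0.97 for 3xPS hairpin over hairpin, 0.25 for hairpin over duplex and 0.69 for hairpin over wild type. The cause of these changes was not tested. No median log2 ratio changed sign under any alternative tried, but the rule itself fixes some of these signs. It fixes that of 3xPS hairpin over hairpin, and that of 3xPS hairpin over wild type wherever the wild type limit was kept. It does not set the signs of hairpin over duplex or of the hairpin and the duplex over wild type. The order of members and MZdicer-high genes in length did change with the minimum, as given above. Depth limits the low members most: 22 members had an MZdicer CPM below 10.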

Other observations

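The 8 MZdicer-high genes of the opposite pattern, lowered by the 3xPS hairpin and the duplex and at or above 0.6 times MZdicer with the hairpin, were ECD, MAPRE1, TMTC2, brms1, slbp2, CITED1 and 2 without a symbol. Their medians of the ratio to MZdicer were 0.484 with the 3xPS hairpin, 0.6405 with the hairpin and 0.297 with the duplex. MAPRE1, which encodes a protein of growing microtubule ends, was at 94.4 CPM after the 3xPS hairpin, 121 CPM after the hairpin and 30.6 CPM after the duplex, against 199.5 CPM in uninjected MZdicer and 24.03 CPM in wild type. The oocyte-type histone stem-loop binding gene slbp2 was at 4.39 CPM after the 3xPS hairpin, 6.01 CPM after the hairpin and 2.45 CPM after the duplex, against 9.08 CPM in uninjected MZdicer and 2.47 CPM in wild type.

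Apart from GANAB, the authors' wider count columns added most to ENSDARG00000044329 and si:dkey-88l16.2. In MZdicer both wider columns raised ENSDARG00000044329 by 754% over the main count. For si:dkey-88l16.2 the middle column added 98.5% and the widest 157%. Its 3xPS hairpin over MZdicer ratio was 0.524 in the middle column and 0.484 in the widest, so it was a member in neither.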
